A study of Mus musculus with 18 samples.

Results

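The 51 genes described here act when a cell builds its spindle, attaches and separates its chromosomes and divides. They were chosen by a list of gene symbols, by a rule that uses no measured value but was written with earlier results of these data known, and they fall into 11 roles, from the cyclins that start mitosis to the proteins that cut the cell apart. All 51 were among the 23420 symbols of the table, and all 51 were among the 11762 genes that passed the expression filter. The study gave carfilzomib (CFZ), an irreversible proteasome inhibitor, to NIH-3T3 cells, an immortalized line of mouse embryonic fibroblasts. RNA of wild-type cells (WT) and of a line in which the transcription factor gene Nrf1, listed as Nfe2l1, had been knocked out with CRISPR/Cas9 (Nrf1KO) was sequenced after DMSO, the vehicle, or 200 nM CFZ for 6 h or 24 h. Each of these 6 groups had 3 libraries. The labels give no time for DMSO and do not say whether the Nrf1KO line is 1 clone, so what sets that line apart may include more than the knockout. The same DMSO libraries of a line serve both times of CFZ. A change with CFZ can therefore not be told apart from a change with time in culture.

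Most of these genes are silent in resting cells and transcribed late in the cell cycle, in G2 and mitosis. Their promoters are held down by the DREAM complex in resting and arrested cells and are switched on in cycling cells by MuvB with B-MYB and FOXM1, often through a short element called the cell cycle genes homology region (CHR). Their proteins are made once per cycle, and several of them, among them the mitotic cyclins, securin and the Aurora kinases, are marked by the anaphase-promoting complex (APC/C) and then destroyed by the proteasome. In RNA taken from a whole culture, fewer dividing cells and less of each mRNA per cell cannot be told apart.

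Total counts per library ranged from 8333148 to 23917081. Levels are counts scaled to a common library size (CPM) with edgeR's TMM factors, and fold changes are on the log2 scale. Their standard error (SE) is approximate, taken as the fold change's size over the square root of the F statistic of edgeR's quasi-likelihood test. A gene was called lower or higher at an adjusted p under 0.05 from that test over all genes tested. Libraries of a group varied by 3.13% around their mean beyond counting error (edgeR's common dispersion), so that even slight shifts could pass this test. Scaling by library size alone moved the median of all genes by up to 0.18, in the Nrf1KO cells at 24 h against DMSO, toward lower values. It moved the share of called genes that were higher from 49.6% to 35.4% in WT and from 49.7% to 36.4% in Nrf1KO cells at 6 h, from 52.0% to 41.6% in Nrf1KO cells at 24 h, and between the lines from 46.9% to 57.7% in DMSO and from 49.8% to 60.8% at 6 h. Nfe2l1 itself read 456.9, 437.3 and 448.8 CPM in WT and 174.3, 184.6 and 181.3 CPM in Nrf1KO cells in DMSO, so its RNA was lowered and not absent. At 6 h of CFZ Nfe2l1 read 650.4, 647.6 and 627.7 CPM in WT and 413.5, 415.9 and 427.0 CPM in Nrf1KO cells. At 24 h it read 558.6, 555.2 and 580.0 CPM in WT and 209.5, 202.3 and 201.4 CPM in Nrf1KO cells. All 10 fibroblast markers were present at 1 CPM or more in every group, but their summed level fell from between 37348 and 40157 CPM in WT cells in DMSO to between 9212 and 9524 at 24 h, and from between 29845 and 36262 to between 12030 and 14153 in the Nrf1KO cells. The 8 epithelial, endothelial and blood markers summed to between 1.82 and 15.1 CPM in all libraries. Epcam and Krt18 were at 0 in all of them and Krt8 and Ptprc at 0 in all WT libraries. Ptprc averaged 0.981 CPM in Nrf1KO cells in DMSO. Cdh1 averaged 6.12 CPM in WT and 11.6 CPM in Nrf1KO cells in DMSO, and 0.556 and 0.397 CPM at 24 h. Cdh5 and Cd68 were higher at 24 h than in DMSO. Their log2 fold changes were 3.67 and 2.26 in WT and 4.22 and 2.55 in Nrf1KO cells. The part of these markers in the results below was not tested.

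The genes fell together in both lines and most in the Nrf1KO cells at 24 h. The 51 genes summed to between 5981 and 6322 CPM in the 3 WT libraries in DMSO, to between 4046 and 4247 at 6 h, and to between 2148 and 2245 at 24 h. In the Nrf1KO libraries the sums were 6071 to 6355 in DMSO, 4148 to 4369 at 6 h and 858 to 917 at 24 h. The ranges of the lines overlapped in DMSO and at 6 h and lay far apart at 24 h. Of the DMSO sum of the same line, 67.5% was left at 6 h and 35.6% at 24 h in the WT cells, and 69.1% and 14.4% in the Nrf1KO cells.

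**Figure D1:**
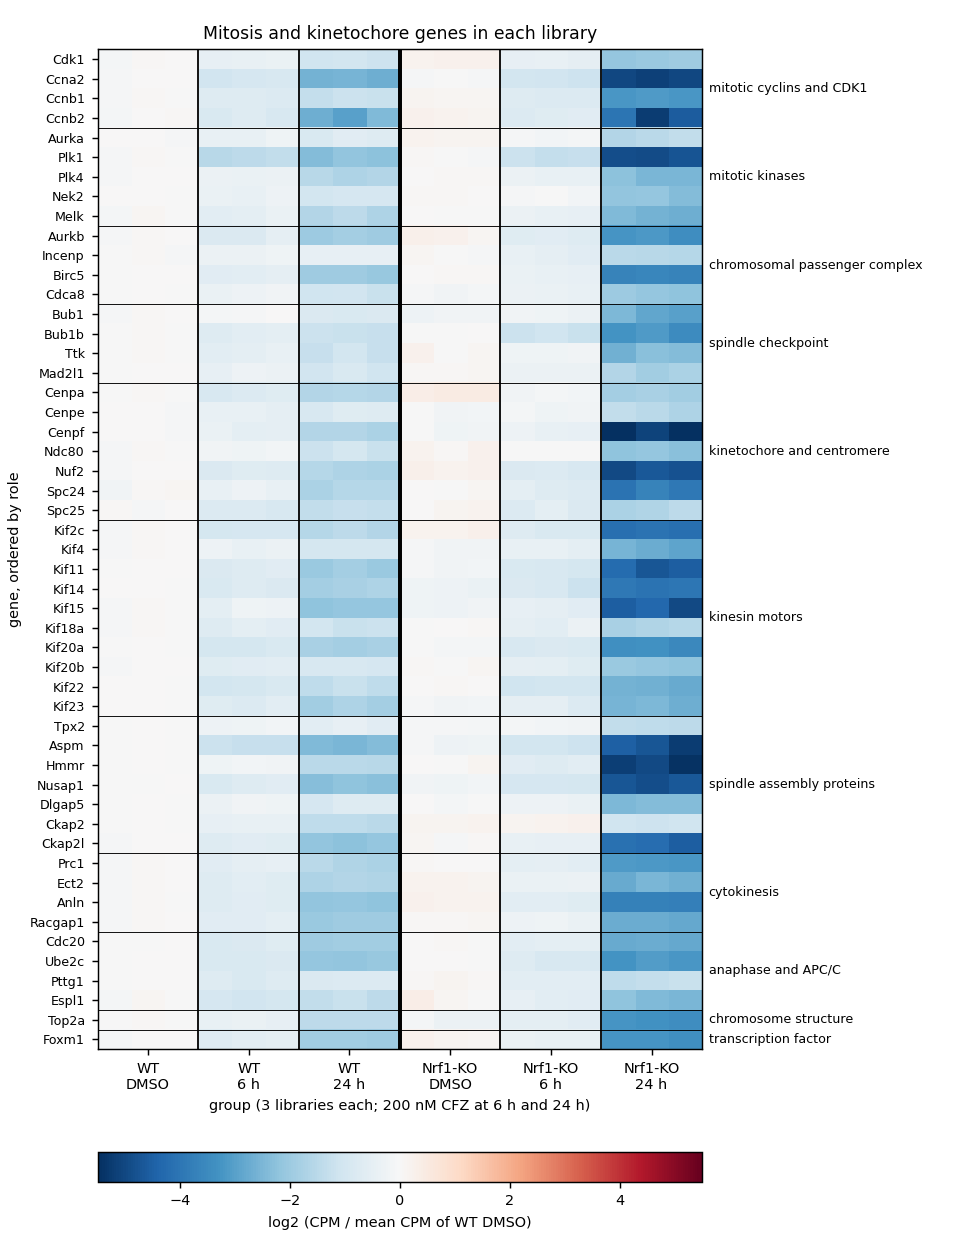
Each row is 1 of the 51 genes, grouped by role, and each column is 1 of the 18 libraries, with 3 for each of the 6 groups. The colour gives the log2 ratio of the library's CPM to the mean CPM of the WT DMSO libraries. The 3 libraries of a group look alike in each row, and the darkest blue lies in the Nrf1KO cells at 24 h. There the member with the smallest change, Ckap2, had 41.4% of its level in Nrf1KO DMSO, which is not the reference of the colour.

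In the WT cells at 6 h, 50 of the 51 were lower and 0 higher, while 36.2% of all genes tested were lower and 35.6% higher. Their median log2 fold change was -0.61, and -0.019 for all genes tested. Of the 51, 2 (Plk1 and Aspm) were lower by at least 2-fold, as were 5.65% of all genes. At 24 h all 51 were lower (40.5% of all genes) and 0 higher (43.2%), with a median of -1.56 against 0.023 for all genes, and 40 were lower by at least 2-fold (14.5%). From 6 h to 24 h the fall went on for 50 of the 51 (35.4% lower and 36.9% higher among all genes), and the exception was Pttg1, at 0.0086 (SE 0.0588, edgeR adjusted p = 0.904). Its direction there was negative under upper-quartile scaling, without the expression filter and without any of 5 of the 6 libraries of that comparison.

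In the Nrf1KO cells at 6 h, 47 of the 51 were lower (35.0% of all genes) and 0 higher (34.5%), with a median of -0.56 against -0.0082 for all genes, and 5 were lower by at least 2-fold (4.26%). The 4 that were not called were Bub1, Cenpe, Tpx2 and Ckap2. Under library size alone all 51 were called lower, as were 5298 of the 11762 genes tested. At 24 h all 51 were lower (41.1% of all genes) and 0 higher (44.4%), and all 51 were lower by at least 2-fold (15.2%). The median was -2.80 against 0.030 for all genes, so that the middle gene kept 14.4% of its DMSO level, in place of 33.8% in the WT cells, and 19 of the 51 kept less than 10%. From 6 h to 24 h all 51 were lower again (38.3% of all genes lower and 38.7% higher), with a median of -2.28 in place of -0.97 in the WT cells. The Nrf1KO cells at 24 h were the lowest of the 6 groups by mean for 50 of the 51, and Ckap2 was lowest in the WT cells at 24 h.

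Across the 51 genes, the change in WT cells and the change in Nrf1KO cells had a Pearson correlation of 0.761 at 6 h and again 0.761 at 24 h (Spearman 0.763 and 0.788). Over all 11762 genes tested these were 0.717 and 0.825 (Spearman 0.740 and 0.814). The points are genes of the same 18 libraries and not independent replicates, so these values are a description. The size of the fall had little relation across the 51 to the level in DMSO of the same line (Pearson -0.12 in WT and -0.13 in Nrf1KO cells at 24 h) or to exonic length (0.083 and -0.058 with its logarithm).

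**Figure D2:**
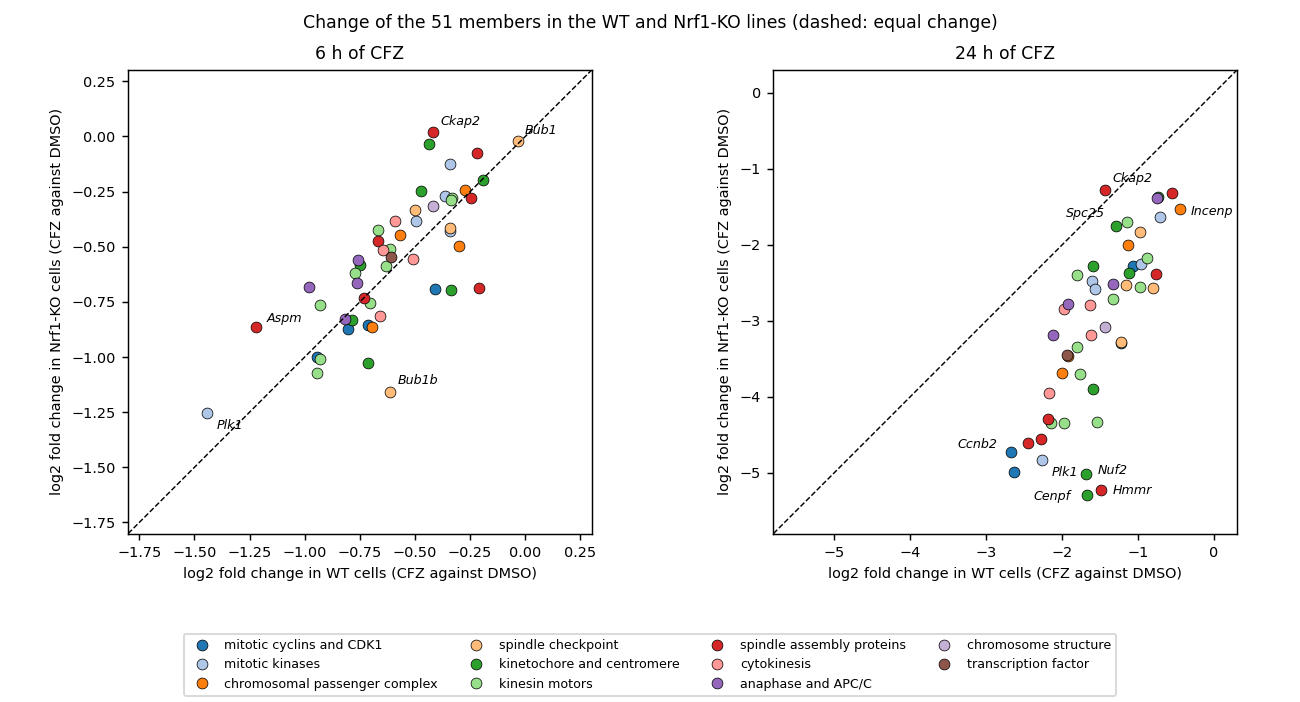
Each point is 1 of the 51 genes, coloured by role, with its log2 fold change under CFZ against DMSO in WT cells on the x axis and in Nrf1KO cells on the y axis, at 6 h on the left and 24 h on the right. The dashed line marks equal change. At 6 h the points lie on both sides of it, and at 24 h 50 of the 51 lie below it, with Ckap2 above.

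What the 51 share in sequence was looked for in their promoters, taken from RefSeq on GRCm38.p6 as 250 bases before and 50 after each start, with 45 promoters for 43 of the genes. Aurkb, Ccna2, Dlgap5, Foxm1, Incenp, Kif20a, Spc24 and Tpx2 were not among them. The CHR core TTTGAA, on either strand, was present in 73.3% of the 45, in 17.9% of all 32851 promoters and in 11.8% of the 11254 promoters of genes tested. The CCAAT box, on either strand, was present in 71.1%, 37.4% and 38.4% of them, and both were present in 62.2%, 6.95% and 4.85%. In 1 of the 45 promoters a match of one motif shared bases with a match of the other. A match is a run of letters and not a measured binding site.

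The 110 bases before the start are shown for 8 of these genes, which hold no annotated exon there, 5′ to 3′ on the gene's strand, with TTTGAA or its reverse complement TTCAAA and CCAAT or its reverse complement ATTGG in capitals. The first 4 hold both motifs, the next 2 hold CCAAT boxes in a row, with TTTGAA outside the stretch shown, and the last 2 hold neither in the 300 bases read.
Kif11: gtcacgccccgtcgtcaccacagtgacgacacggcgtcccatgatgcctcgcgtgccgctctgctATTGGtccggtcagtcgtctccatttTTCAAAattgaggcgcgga
Top2a: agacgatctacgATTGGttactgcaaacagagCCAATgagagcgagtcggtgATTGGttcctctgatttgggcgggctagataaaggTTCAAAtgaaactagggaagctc
Ckap2l: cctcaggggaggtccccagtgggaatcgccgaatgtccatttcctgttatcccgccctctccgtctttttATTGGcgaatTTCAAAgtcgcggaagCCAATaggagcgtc
Ckap2: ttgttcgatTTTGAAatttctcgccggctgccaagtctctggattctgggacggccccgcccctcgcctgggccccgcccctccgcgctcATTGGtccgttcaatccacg
Ccnb2: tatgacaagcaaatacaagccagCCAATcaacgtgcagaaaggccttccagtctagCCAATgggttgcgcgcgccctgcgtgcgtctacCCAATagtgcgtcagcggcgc
Hmmr: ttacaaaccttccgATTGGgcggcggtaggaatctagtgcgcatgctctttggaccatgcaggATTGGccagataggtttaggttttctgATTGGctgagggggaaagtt
Birc5: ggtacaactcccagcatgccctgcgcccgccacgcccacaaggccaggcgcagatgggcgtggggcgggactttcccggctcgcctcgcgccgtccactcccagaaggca
Nuf2: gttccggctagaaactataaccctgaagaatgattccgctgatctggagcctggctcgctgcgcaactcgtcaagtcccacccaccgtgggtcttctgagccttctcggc
The stretches are at chr19:37376272-37376381 (plus strand) for Kif11, chr11:99024190-99024299 (minus strand) for Top2a, chr2:129297213-129297322 (minus strand) for Ckap2l, chr8:22185820-22185929 (minus strand) for Ckap2, chr9:70421555-70421664 (minus strand) for Ccnb2, chr11:40733438-40733547 (minus strand) for Hmmr, chr11:117849127-117849236 (plus strand) for Birc5 and chr1:169531465-169531574 (minus strand) for Nuf2.

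Genes with these letters and genes without them were lower at 24 h in both lines. In the Nrf1KO cells at 24 h the median log2 fold change was -2.85 for the 31 genes with TTTGAA (from -5.29 to -1.27) and -2.52 for the 12 without it (from -5.02 to -1.37), and in WT cells it was -1.59 and -1.18. For CCAAT the Nrf1KO medians were -2.79 for 30 genes with it and -2.58 for 13 without, and the WT medians were -1.46 and -1.56. Nuf2, with neither motif in its window, had a log2 fold change of -5.02 in Nrf1KO cells at 24 h, and Ckap2, with both, had -1.27. The ranges of the genes with and without each motif overlapped over most of their length.

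Cyclin-dependent kinase 1 (Cdk1) drives entry into mitosis together with cyclins A2 (Ccna2), B1 (Ccnb1) and B2 (Ccnb2). All 4 were lower in each line at each time, with a median of -1.93 in WT and -4.01 in Nrf1KO cells at 24 h. Ccna2 stood at 198.9, 211.2 and 208.4 CPM in the WT libraries in DMSO, 99.7, 108.9 and 112.8 at 6 h and 33.8, 34.7 and 31.7 at 24 h. Ccna2 in the Nrf1KO libraries read 198.7, 200.2 and 198.7 CPM in DMSO, 102.4, 100.8 and 94.7 at 6 h and 6.48, 5.88 and 6.41 at 24 h. The lines overlapped in DMSO and at 6 h, and at 24 h all Nrf1KO libraries lay below all WT libraries. At 24 h Ccna2 had a log2 fold change of -2.63 (SE 0.0467, edgeR adjusted p = 3.89e-30) in WT and of -4.997 (SE 0.0612, edgeR adjusted p = 1.65e-34) in Nrf1KO cells. Exons of Exosc9 lie opposite 12.5% of the exonic bases of Ccna2, and their reads cannot be told apart if strand was not used in counting. Ccnb1 stood at 120.2, 131.3 and 125.8 CPM in the WT libraries in DMSO, 77.0, 77.9 and 75.2 at 6 h and 51.03, 55.8 and 53.9 at 24 h. Ccnb1 in the Nrf1KO libraries read 140.0, 133.6 and 135.9 CPM in DMSO, 76.1, 75.8 and 73.9 at 6 h and 13.7, 14.5 and 13.6 at 24 h. Here too the 6 h libraries of the lines overlapped and the 24 h libraries did not. At 24 h Ccnb1 had a log2 fold change of -1.22 (SE 0.0412, edgeR adjusted p = 8.38e-23) in WT and of -3.29 (SE 0.0503, edgeR adjusted p = 5.30e-32) in Nrf1KO cells. Of the stretches of one read's length in the Ccnb1 transcript sequence, 11.5% also occur in the pseudogenes Ccnb1-ps, Gm8416 and Gm12856, so its counts are uncertain to that extent. Cdk1 stood at 123.8, 137.9 and 135.0 CPM in the WT libraries in DMSO, 96.2, 99.4 and 103.0 at 6 h and 62.0, 65.2 and 60.8 at 24 h. Cdk1 in the Nrf1KO libraries read 152.9, 154.9 and 157.7 CPM in DMSO, 95.7, 99.4 and 92.6 at 6 h and 30.1, 31.7 and 34.1 at 24 h. Cdk1 fell least of the 4, and its Nrf1KO libraries in DMSO all stood above the WT ones. At 24 h Cdk1 had a log2 fold change of -1.07 (SE 0.0449, edgeR adjusted p = 2.71e-20) in WT and of -2.28 (SE 0.0479, edgeR adjusted p = 2.42e-28) in Nrf1KO cells. Ccnb2 had the largest fall of all 51 in WT cells at 24 h, from 21.2, 22.7 and 23.6 to 3.46, 2.88 and 4.21 CPM, and in Nrf1KO cells it went from 26.1, 25.5 and 25.3 to 1.41, 0.610 and 0.951 CPM. The lowest of these values rests on 11 reads, the smallest count of any of the 51 genes in any library. At 24 h Ccnb2 had a log2 fold change of -2.67 (SE 0.109, edgeR adjusted p = 1.56e-20) in WT and of -4.73 (SE 0.135, edgeR adjusted p = 8.70e-25) in Nrf1KO cells.

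The mitotic kinases other than Cdk1 and Aurora B include Polo-like kinase 1 (Plk1), which acts in mitotic entry, spindle assembly and cytokinesis, Aurora A (Aurka), which acts at the spindle poles, Plk4, which starts centriole duplication, Nek2, which acts in centrosome separation, and Melk. All 5 were lower at each time in each line. Plk1 stood at 82.0, 88.8 and 82.8 CPM in the WT libraries in DMSO, 29.2, 31.2 and 32.9 at 6 h and 16.3, 18.6 and 17.5 at 24 h. Plk1 in the Nrf1KO libraries read 87.4, 84.3 and 80.9 CPM in DMSO, 37.0, 33.8 and 34.7 at 6 h and 2.89, 2.83 and 3.11 at 24 h. Plk1, at chr7:122159439-122169873 of GRCm38, had the largest fall of the 51 at 6 h in both lines, and at 24 h its Nrf1KO libraries were several times below the WT ones. At 6 h Plk1 had a log2 fold change of -1.44 (SE 0.0513, edgeR adjusted p = 1.30e-21) in WT and of -1.25 (SE 0.0516, edgeR adjusted p = 9.25e-20) in Nrf1KO cells. At 24 h Plk1 had a log2 fold change of -2.26 (SE 0.0567, edgeR adjusted p = 3.18e-26) in WT and of -4.83 (SE 0.0786, edgeR adjusted p = 2.45e-31) in Nrf1KO cells. Aurka stood at 51.5, 51.5 and 48.8 CPM in the WT libraries in DMSO, 38.0, 37.6 and 42.6 at 6 h and 28.7, 32.4 and 30.8 at 24 h. Aurka in the Nrf1KO libraries read 58.2, 55.7 and 56.0 CPM in DMSO, 49.0, 45.2 and 46.5 at 6 h and 16.8, 17.9 and 19.9 at 24 h. Aurka was the kinase with the smallest change at 24 h, and its Nrf1KO libraries stood above the WT ones in DMSO and at 6 h but below them at 24 h. At 24 h Aurka had a log2 fold change of -0.71 (SE 0.0565, edgeR adjusted p = 3.93e-13) in WT and of -1.64 (SE 0.0594, edgeR adjusted p = 5.24e-22) in Nrf1KO cells. Plk4, Nek2 and Melk lay between, at -1.61, -0.96 and -1.56 in WT and -2.48, -2.26 and -2.58 in Nrf1KO cells at 24 h.

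The chromosomal passenger complex corrects wrong attachments and later acts in cytokinesis. It holds the kinase Aurora B (Aurkb), its scaffold Incenp, survivin (Birc5) and borealin (Cdca8). All 4 were lower at each time in each line, but by unequal amounts. Aurkb stood at 68.7, 75.3 and 72.1 CPM in the WT libraries in DMSO, 41.3, 41.4 and 50.5 at 6 h and 18.3, 19.5 and 18.8 at 24 h. Aurkb in the Nrf1KO libraries read 87.0, 84.0 and 77.4 CPM in DMSO, 45.0, 46.7 and 43.6 at 6 h and 7.54, 8.10 and 6.72 at 24 h. The 24 h libraries of the 2 lines did not overlap, while those at 6 h did. At 24 h Aurkb had a log2 fold change of -1.93 (SE 0.0688, edgeR adjusted p = 3.86e-22) in WT and of -3.46 (SE 0.0785, edgeR adjusted p = 1.95e-27) in Nrf1KO cells. Birc5 stood at 76.4, 78.7 and 80.0 CPM in the WT libraries in DMSO, 50.7, 51.8 and 55.8 at 6 h and 20.3, 19.9 and 18.5 at 24 h. Birc5 in the Nrf1KO libraries read 80.6, 82.6 and 81.4 CPM in DMSO, 61.6, 59.7 and 57.3 at 6 h and 6.20, 6.55 and 6.22 at 24 h. Birc5 fell most of the 4 at 24 h, and no Nrf1KO library there reached the lowest WT library. At 24 h Birc5 had a log2 fold change of -2.005 (SE 0.0508, edgeR adjusted p = 4.08e-26) in WT and of -3.68 (SE 0.0610, edgeR adjusted p = 3.85e-31) in Nrf1KO cells. Incenp, by contrast, had the smallest fall of all 51 genes in WT cells at 24 h, from 112.6, 119.8 and 110.8 to 84.7, 83.6 and 83.2 CPM, and in Nrf1KO cells it went from 121.8, 112.5 and 108.8 to 40.6, 39.6 and 38.1 CPM. At 24 h Incenp had a log2 fold change of -0.45 (SE 0.0464, edgeR adjusted p = 1.97e-10) in WT and of -1.53 (SE 0.0506, edgeR adjusted p = 3.90e-23) in Nrf1KO cells. Cdca8 stood at -1.13 in WT and -2.01 in Nrf1KO cells at 24 h, in log2 fold change.

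The spindle checkpoint holds back anaphase until every kinetochore is attached. Mad2l1 and BubR1 (Bub1b) bind Cdc20 and block the APC/C, and the kinases Bub1 and Mps1 (Ttk) recruit them. Bub1b stood at 115.4, 120.9 and 113.8 CPM in the WT libraries in DMSO, 71.3, 77.6 and 80.1 at 6 h and 51.2, 50.5 and 48.8 at 24 h. Bub1b in the Nrf1KO libraries read 115.4, 115.2 and 119.2 CPM in DMSO, 51.4, 55.4 and 49.6 at 6 h and 11.9, 13.5 and 10.6 at 24 h. At 6 h all 3 Nrf1KO libraries of Bub1b lay below all 3 WT libraries, although the lines overlapped in DMSO. At 6 h Bub1b had a log2 fold change of -0.61 (SE 0.0459, edgeR adjusted p = 2.45e-13) in WT and of -1.16 (SE 0.0497, edgeR adjusted p = 2.64e-19) in Nrf1KO cells. At 24 h Bub1b had a log2 fold change of -1.22 (SE 0.0486, edgeR adjusted p = 7.15e-21) in WT and of -3.27 (SE 0.0607, edgeR adjusted p = 7.43e-30) in Nrf1KO cells. Mad2l1 stood at 95.95, 98.6 and 98.1 CPM in the WT libraries in DMSO, 72.3, 79.6 and 78.9 at 6 h and 47.1, 55.0 and 46.2 at 24 h. Mad2l1 in the Nrf1KO libraries read 103.2, 101.6 and 106.1 CPM in DMSO, 76.9, 77.8 and 79.1 at 6 h and 32.3, 26.2 and 29.6 at 24 h. Mad2l1 fell less than Bub1b in each line at 24 h, and its 6 h libraries overlapped between the lines. At 24 h Mad2l1 had a log2 fold change of -0.97 (SE 0.0546, edgeR adjusted p = 6.32e-17) in WT and of -1.83 (SE 0.0575, edgeR adjusted p = 1.09e-23) in Nrf1KO cells. Bub1 was not called at 6 h in either line, at -0.035 (SE 0.0514, edgeR adjusted p = 0.546) in WT and -0.021 (SE 0.0543, edgeR adjusted p = 0.753) in Nrf1KO cells. Both values were called lower under library size alone, at -0.17 and -0.13, the WT one also under upper-quartile scaling, at -0.14, and each turned positive when 1 library was left out (WT 6 h replicate 1 and Nrf1KO 6 h replicate 3). By 24 h Bub1 stood at 46.4, 44.4 and 45.4 CPM in WT cells, from 75.1, 82.3 and 80.5 in DMSO, and at 14.2, 10.9 and 9.96 CPM in Nrf1KO cells, from 66.1, 69.8 and 69.2. At 24 h Bub1 had a log2 fold change of -0.81 (SE 0.0555, edgeR adjusted p = 1.21e-14) in WT and of -2.56 (SE 0.0704, edgeR adjusted p = 3.09e-25) in Nrf1KO cells. Ttk had log2 fold changes of -1.16 and -2.52 at 24 h.

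The kinetochore is the protein plate on the centromere that holds the spindle fibres. Cenpa is the centromeric histone, Ndc80, Nuf2, Spc24 and Spc25 form the complex that binds microtubules, and Cenpe and Cenpf are large proteins of the outer kinetochore. All 7 were lower in WT cells at both times and in Nrf1KO cells at 24 h. At 6 h Cenpe was not called in the Nrf1KO cells, but it was called lower there under library size alone. Cenpa stood at 58.2, 61.5 and 58.8 CPM in the WT libraries in DMSO, 32.8, 35.4 and 38.0 at 6 h and 19.4, 20.1 and 19.6 at 24 h. Cenpa in the Nrf1KO libraries read 77.8, 81.1 and 80.9 CPM in DMSO, 52.1, 54.8 and 53.2 at 6 h and 16.1, 17.3 and 15.9 at 24 h. Cenpa stood higher in the Nrf1KO libraries in DMSO and at 6 h, with no overlap, and lower at 24 h. At 24 h Cenpa had a log2 fold change of -1.59 (SE 0.0546, edgeR adjusted p = 1.39e-22) in WT and of -2.28 (SE 0.0524, edgeR adjusted p = 2.74e-27) in Nrf1KO cells. Ndc80 stood at 72.1, 78.7 and 73.4 CPM in the WT libraries in DMSO, 65.5, 63.4 and 67.1 at 6 h and 32.8, 37.8 and 31.7 at 24 h. Ndc80 in the Nrf1KO libraries read 84.6, 78.5 and 86.9 CPM in DMSO, 72.9, 72.8 and 72.5 at 6 h and 16.3, 16.9 and 14.97 at 24 h. The fall of Ndc80 at 6 h was small beside that at 24 h in both lines. At 6 h Ndc80 had a log2 fold change of -0.19 (SE 0.0504, edgeR adjusted p = 0.00112) in WT and of -0.20 (SE 0.0498, edgeR adjusted p = 7.22e-04) in Nrf1KO cells. At 24 h Ndc80 had a log2 fold change of -1.12 (SE 0.0556, edgeR adjusted p = 2.36e-18) in WT and of -2.38 (SE 0.0610, edgeR adjusted p = 5.00e-26) in Nrf1KO cells. The 4 subunits of the Ndc80 complex did not fall by equal amounts in the Nrf1KO cells at 24 h. Nuf2 went from 86.4, 81.0 and 82.9 to 2.25, 2.83 and 2.54 CPM there, and Spc24 from 20.3, 19.5 and 21.7 to 1.20, 1.55 and 1.33. Spc25 went from 31.3, 33.4 and 35.3 to 9.15, 9.60 and 11.1 CPM. Their log2 fold changes there were -5.02 for Nuf2, -3.90 for Spc24, -2.38 for Ndc80 and -1.75 for Spc25, while in WT cells the 4 lay between -1.68 and -1.12. The difference in response between the lines was accordingly -3.34 (SE 0.112, edgeR adjusted p = 2.04e-21) for Nuf2 and -0.46 (SE 0.113, edgeR adjusted p = 7.73e-04) for Spc25.

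Cenpf had the largest fall of all 51 in the Nrf1KO cells. Cenpf stood at 180.6, 185.0 and 173.4 CPM in the WT libraries in DMSO, 138.7, 123.9 and 126.5 at 6 h and 58.2, 58.4 and 53.6 at 24 h. Cenpf in the Nrf1KO libraries read 179.0, 154.0 and 158.5 CPM in DMSO, 147.6, 134.2 and 130.2 at 6 h and 3.80, 5.27 and 3.23 at 24 h. At 24 h the Nrf1KO libraries lay several times below the WT libraries, and in DMSO and at 6 h the lines overlapped. At 24 h Cenpf had a log2 fold change of -1.67 (SE 0.0595, edgeR adjusted p = 3.79e-22) in WT and of -5.29 (SE 0.0924, edgeR adjusted p = 1.57e-30) in Nrf1KO cells. Cenpf, at chr1:189640606-189688086 of GRCm38, kept 2.55% of its DMSO level in the Nrf1KO cells, whereas Cenpe, its neighbour in function, had log2 fold changes of -0.73 in WT and -1.37 in Nrf1KO cells at 24 h.

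**Figure D3:**
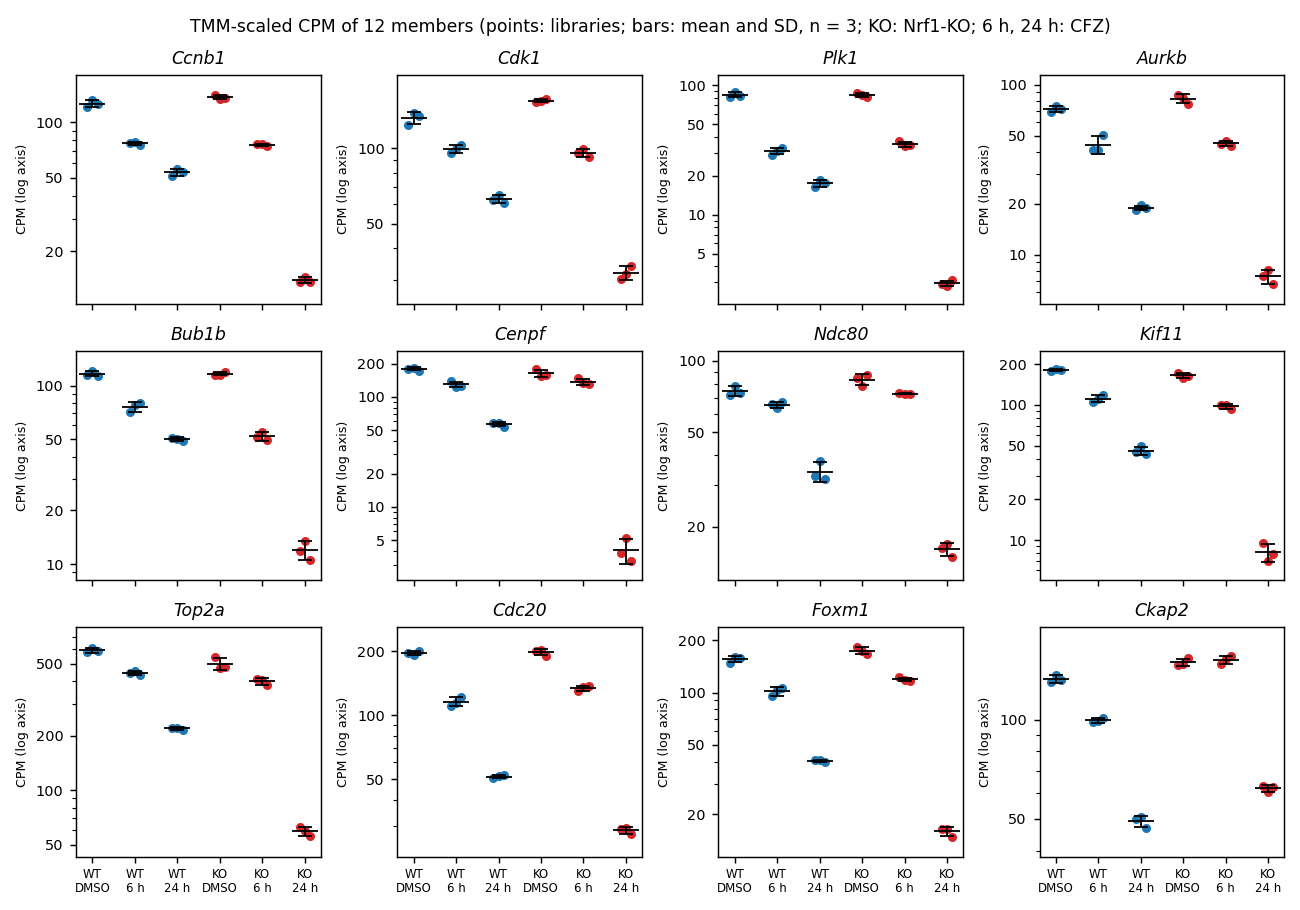
Each panel gives 1 gene in TMM-scaled CPM on a log axis, with a point for each of the 18 libraries, blue for WT and red for Nrf1KO, and the mean and SD of each group (n = 3). In 11 of the 12 panels the 3 red points at 24 h are the lowest, and in the Ckap2 panel the WT points at 24 h are.

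Kinesins are motors that walk on or take apart spindle fibres. The 10 here were lower at each time in each line, with medians of -0.69 and -1.65 in WT and -0.60 and -3.02 in Nrf1KO cells at 6 h and 24 h. Kif11 stood at 177.3, 184.3 and 180.9 CPM in the WT libraries in DMSO, 104.5, 110.3 and 117.9 at 6 h and 44.4, 49.3 and 43.6 at 24 h. Kif11 in the Nrf1KO libraries read 170.7, 158.9 and 164.0 CPM in DMSO, 100.1, 98.8 and 92.8 at 6 h and 9.51, 6.99 and 7.93 at 24 h. Kif11 (Eg5) pushes the spindle poles apart, and its Nrf1KO libraries were below the WT ones in all 3 treatments. At 24 h Kif11 had a log2 fold change of -1.98 (SE 0.0510, edgeR adjusted p = 6.48e-26) in WT and of -4.35 (SE 0.0679, edgeR adjusted p = 9.07e-32) in Nrf1KO cells. Kif20a stood at 159.1, 165.7 and 162.2 CPM in the WT libraries in DMSO, 82.9, 83.0 and 89.5 at 6 h and 47.4, 44.7 and 47.6 at 24 h. Kif20a in the Nrf1KO libraries read 158.3, 152.6 and 152.2 CPM in DMSO, 88.2, 94.2 and 89.7 at 6 h and 15.6, 16.3 and 13.8 at 24 h. Kif20a acts in cytokinesis, and 29.3% of its exonic bases lie opposite exons of Cdc23, whose reads cannot be told apart if strand was not used in counting. At 24 h Kif20a had a log2 fold change of -1.805 (SE 0.0433, edgeR adjusted p = 9.79e-27) in WT and of -3.34 (SE 0.0512, edgeR adjusted p = 5.72e-32) in Nrf1KO cells. Kif15, which can work beside Kif11, had a log2 fold change of -2.15 (SE 0.0729, edgeR adjusted p = 9.77e-23) in WT and of -4.35 (SE 0.103, edgeR adjusted p = 5.52e-27) in Nrf1KO cells at 24 h, and Kif2c, which removes tubulin from fibre ends at the centromere, had -1.54 (SE 0.0474, edgeR adjusted p = 7.53e-24) and -4.33 (SE 0.0631, edgeR adjusted p = 1.50e-32). Kif18a, which limits chromosome movement on the spindle, fell least of the 10 in the Nrf1KO cells, with log2 fold changes in WT and Nrf1KO cells of -1.14 and -1.70. Kif4, Kif14, Kif20b, Kif22 and Kif23 lay between -1.799 and -0.89 in WT and between -3.70 and -2.18 in Nrf1KO cells. Exons of Pdzd11 lie opposite 15.1% of the exonic bases of Kif4.

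Genes of spindle assembly spread widely. Tpx2 activates Aurora A on the spindle, Aspm focuses the poles, Hmmr and Nusap1 bind and bundle microtubules, Dlgap5 stabilises the fibres at kinetochores, and Ckap2 and its relative Ckap2l bind spindle microtubules. Tpx2 stood at 173.8, 178.2 and 173.0 CPM in the WT libraries in DMSO, 146.2, 148.2 and 157.0 at 6 h and 117.8, 126.9 and 112.2 at 24 h. Tpx2 in the Nrf1KO libraries read 168.5, 165.4 and 163.4 CPM in DMSO, 162.7, 155.5 and 152.8 at 6 h and 68.9, 65.7 and 65.1 at 24 h. Tpx2 was the member of this role with the smallest fall in WT cells at 24 h. At 6 h it was lower in WT cells, -0.22 (SE 0.0389, edgeR adjusted p = 1.02e-05), and not called in Nrf1KO cells, -0.075 (SE 0.0394, edgeR adjusted p = 0.0922). There it was called under upper-quartile scaling (-0.15), under library size alone (-0.19), without the expression filter (-0.12) and without Nrf1KO 6 h replicate 1 (-0.10). At 24 h Tpx2 had a log2 fold change of -0.56 (SE 0.0397, edgeR adjusted p = 3.24e-14) in WT and of -1.32 (SE 0.0419, edgeR adjusted p = 1.50e-23) in Nrf1KO cells. Hmmr behaved otherwise, with 147.0, 150.9 and 143.6 CPM in WT cells in DMSO, 123.2, 130.9 and 127.4 at 6 h and 52.8, 53.4 and 51.9 at 24 h. In the Nrf1KO cells Hmmr read 150.2, 145.4 and 162.3 CPM in DMSO, 96.8, 91.1 and 97.7 at 6 h and 4.01, 4.77 and 3.36 at 24 h. All Nrf1KO libraries lay below all WT libraries at 6 h and at 24 h, and the lines overlapped in DMSO. At 24 h Hmmr had a log2 fold change of -1.48 (SE 0.0466, edgeR adjusted p = 1.27e-23) in WT and of -5.23 (SE 0.0715, edgeR adjusted p = 2.82e-33) in Nrf1KO cells. In the Nrf1KO cells at 24 h the log2 fold changes of Aspm, Nusap1, Ckap2l and Dlgap5 were -4.603, -4.56, -4.30 and -2.38, and in WT cells they were -2.45, -2.28, -2.19 and -0.76.

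At 24 h Ckap2 was the 1 member whose log2 fold change was not more negative in the Nrf1KO cells than in the WT cells. Ckap2 stood at 129.6, 136.7 and 132.1 CPM in the WT libraries in DMSO, 98.1, 99.1 and 101.0 at 6 h and 49.9, 50.4 and 46.9 at 24 h. Ckap2 in the Nrf1KO libraries read 146.2, 147.2 and 153.7 CPM in DMSO, 147.0, 152.8 and 155.5 at 6 h and 63.0, 60.1 and 62.5 at 24 h. The 6 h libraries of the Nrf1KO cells overlapped their DMSO libraries, and at 24 h all 3 stood above all 3 WT libraries. At 6 h the change was -0.42 (SE 0.0372, edgeR adjusted p = 1.41e-11) in WT and 0.021 (SE 0.0356, edgeR adjusted p = 0.69) in Nrf1KO cells. The last value was negative under upper-quartile scaling (-0.053), library size alone (-0.091, called) and without the expression filter (-0.028). At 24 h Ckap2 had a log2 fold change of -1.44 (SE 0.0409, edgeR adjusted p = 8.85e-25) in WT and of -1.27 (SE 0.0381, edgeR adjusted p = 2.98e-24) in Nrf1KO cells. At 24 h Ckap2 was higher in the Nrf1KO than in the WT cells by 0.34 (SE 0.0448, edgeR adjusted p = 7.07e-08), and it was called so under each alternative run for that comparison except a minimum fold of 2. The difference in its response at 24 h, 0.17 (SE 0.0567, edgeR adjusted p = 0.0123), was not called under library size alone (0.089, adjusted p = 0.199 from edgeR) or without WT 24 h replicate 3 (0.13, adjusted p = 0.0706 from edgeR). Ckap2 is at chr8:22168160-22185819 of GRCm38 and shared no stretch of one read's length with another transcript.

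In cytokinesis, Prc1 bundles the fibres of the midzone, Racgap1 and Ect2 switch on RhoA, and anillin (Anln) links the contractile ring to the membrane. All 4 were lower by more than 2-fold in both lines at 24 h. Prc1 stood at 213.9, 230.7 and 226.1 CPM in the WT libraries in DMSO, 146.7, 159.2 and 164.5 at 6 h and 80.9, 71.8 and 67.5 at 24 h. Prc1 in the Nrf1KO libraries read 232.4, 226.2 and 225.7 CPM in DMSO, 156.1, 159.6 and 148.6 at 6 h and 25.6, 25.2 and 24.3 at 24 h. Prc1 libraries of the lines overlapped in DMSO and at 6 h and were well apart at 24 h. At 24 h Prc1 had a log2 fold change of -1.62 (SE 0.0477, edgeR adjusted p = 2.21e-24) in WT and of -3.19 (SE 0.0546, edgeR adjusted p = 9.41e-31) in Nrf1KO cells. Of the exonic bases of Prc1, 11.1% lie opposite exons of Rccd1. Anln, Racgap1 and Ect2 had log2 fold changes of -2.17, -1.97 and -1.64 in WT and -3.95, -2.85 and -2.79 in Nrf1KO cells at 24 h.

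Anaphase begins when Cdc20 and the APC/C, with the ubiquitin-conjugating enzyme Ube2c, mark securin (Pttg1) for the proteasome and so free separase (Espl1), which cuts cohesin. Cdc20 stood at 195.4, 192.3 and 200.4 CPM in the WT libraries in DMSO, 110.9, 114.4 and 121.8 at 6 h and 50.4, 51.7 and 52.2 at 24 h. Cdc20 in the Nrf1KO libraries read 200.6, 202.4 and 190.5 CPM in DMSO, 130.02, 135.1 and 136.9 at 6 h and 29.1, 29.5 and 27.5 at 24 h. Cdc20 stood higher in the Nrf1KO libraries at 6 h and lower at 24 h, with no overlap at either time. At 24 h Cdc20 had a log2 fold change of -1.93 (SE 0.0412, edgeR adjusted p = 4.48e-28) in WT and of -2.78 (SE 0.0440, edgeR adjusted p = 1.20e-31) in Nrf1KO cells. Per kilobase of exon, Cdc20 had the highest level of the 51 in WT DMSO, at 105 CPM per kb. Ube2c stood at 90.1, 95.2 and 93.0 CPM in the WT libraries in DMSO, 52.2, 52.0 and 53.7 at 6 h and 21.2, 20.7 and 21.8 at 24 h. Ube2c in the Nrf1KO libraries read 93.8, 93.8 and 92.7 CPM in DMSO, 56.4, 50.9 and 49.9 at 6 h and 9.58, 10.98 and 10.02 at 24 h. The lines overlapped for Ube2c in DMSO and at 6 h and not at 24 h, and 22.8% of its exonic bases lie opposite exons of Tnnc2. At 24 h Ube2c had a log2 fold change of -2.12 (SE 0.0506, edgeR adjusted p = 7.97e-27) in WT and of -3.19 (SE 0.0562, edgeR adjusted p = 1.98e-30) in Nrf1KO cells. Pttg1 stood at 41.2, 41.4 and 41.3 CPM in the WT libraries in DMSO, 24.9, 22.9 and 25.2 at 6 h and 23.5, 24.8 and 24.9 at 24 h. Pttg1 in the Nrf1KO libraries read 43.2, 45.2 and 43.2 CPM in DMSO, 27.4, 27.6 and 27.8 at 6 h and 15.9, 16.8 and 17.5 at 24 h. In the WT cells the 6 h and 24 h libraries of Pttg1 overlapped, and in the Nrf1KO cells the 24 h libraries were the lower. At 24 h Pttg1 had a log2 fold change of -0.75 (SE 0.0512, edgeR adjusted p = 8.41e-15) in WT and of -1.39 (SE 0.0526, edgeR adjusted p = 1.69e-21) in Nrf1KO cells. Espl1 had log2 fold changes of -1.33 and -2.51 at 24 h.

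Topoisomerase II alpha (Top2a) untangles sister chromosomes, and Foxm1 is a transcription factor that drives many of the genes above. Top2a stood at 576.7, 612.4 and 586.2 CPM in the WT libraries in DMSO, 441.4, 454.0 and 433.5 at 6 h and 221.0, 221.2 and 215.1 at 24 h. Top2a in the Nrf1KO libraries read 543.6, 471.6 and 480.0 CPM in DMSO, 412.3, 407.7 and 379.5 at 6 h and 62.3, 59.4 and 55.7 at 24 h. Top2a was lower in the Nrf1KO libraries in all 3 treatments, most at 24 h. At 24 h Top2a had a log2 fold change of -1.43 (SE 0.0446, edgeR adjusted p = 9.34e-24) in WT and of -3.08 (SE 0.0502, edgeR adjusted p = 2.69e-31) in Nrf1KO cells. Foxm1 stood at 147.9, 158.9 and 158.0 CPM in the WT libraries in DMSO, 95.1, 103.2 and 106.4 at 6 h and 40.8, 41.1 and 40.0 at 24 h. Foxm1 in the Nrf1KO libraries read 181.8, 173.4 and 167.0 CPM in DMSO, 122.0, 117.9 and 116.4 at 6 h and 16.4, 16.5 and 14.9 at 24 h. Foxm1 stood higher in the Nrf1KO libraries in DMSO and at 6 h and lower at 24 h. At 24 h Foxm1 had a log2 fold change of -1.93 (SE 0.0473, edgeR adjusted p = 1.67e-26) in WT and of -3.45 (SE 0.0535, edgeR adjusted p = 7.96e-32) in Nrf1KO cells. Its log2 fold changes at 6 h were -0.61 in WT and -0.55 in Nrf1KO cells, close to the medians of the 51.

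Before any CFZ the lines differed little. In DMSO, 14 of the 51 were higher in the Nrf1KO cells (25.7% of all genes tested) and 12 lower (29.1%), with a median of 0.040, but 22 were higher and 6 lower under library size alone. The differences ran from -0.30 (SE 0.0515, edgeR adjusted p = 1.15e-05) for Kif14 to 0.43 (SE 0.0414, edgeR adjusted p = 2.85e-10) for Cenpa, and 0 of the 51 differed by 2-fold. Of the 26 calls, 18 were made under each alternative run other than a minimum fold of 2. At 6 h, 18 were higher in the Nrf1KO cells (30.5% of all genes) and 10 lower (30.8%), with a median of 0.088, from -0.54 (SE 0.0537, edgeR adjusted p = 2.64e-10) for Bub1b to 0.61 (SE 0.0381, edgeR adjusted p = 6.46e-15) for Ckap2. Under library size alone 26 were higher and 6 lower. At 24 h the picture was of another kind, with 50 lower (36.4% of all genes) and 1, Ckap2, higher (35.6%). Of the 50, 35 were lower by at least 2-fold (5.53%), and the median was -1.34, down to -3.76 (SE 0.110, edgeR adjusted p = 7.83e-24) for Cenpf.

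The difference between the lines in the response to CFZ, the interaction of line and treatment, tests this directly. At 6 h the response of 8 of the 51 was more negative in the Nrf1KO cells (18.4% of all genes tested) and that of 13 more positive (19.8%), with a median of 0.052. These shares of the 51 were not far from those of all genes. The 13 came down to 8 without WT DMSO replicate 2 or Nrf1KO DMSO replicate 2, to 7 without Nrf1KO 6 h replicate 1 and to 6 without WT 6 h replicate 2. The 8 came down to 4 without Nrf1KO 6 h replicate 3, and to 5 under upper-quartile scaling. Of the 21 calls, 9 were made under each alternative run other than a minimum fold of 2. They were Bub1b at -0.55 (SE 0.0683, edgeR adjusted p = 1.12e-07), Hmmr at -0.48 (SE 0.0605, edgeR adjusted p = 1.35e-07), Nuf2 at -0.32 (SE 0.0682, edgeR adjusted p = 3.68e-04) and Cdk1 at -0.28 (SE 0.0604, edgeR adjusted p = 3.15e-04) on the negative side. On the positive side they were Ckap2 at 0.44 (SE 0.0515, edgeR adjusted p = 3.19e-08), Cenpe at 0.40 (SE 0.0759, edgeR adjusted p = 7.48e-05), Aspm at 0.35 (SE 0.0776, edgeR adjusted p = 4.45e-04), Racgap1 at 0.21 (SE 0.0522, edgeR adjusted p = 0.00177) and Cdc20 at 0.20 (SE 0.0526, edgeR adjusted p = 0.00306).

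At 24 h the response of 50 of the 51 was more negative in the Nrf1KO cells (30.0% of all genes tested) and that of 1, Ckap2, more positive (29.7%). Of the 50, 37 differed by at least 2-fold (4.53%), and the median was -1.52 against 0.0049 for all genes. The largest were -3.74 (SE 0.0972, edgeR adjusted p = 4.44e-24) for Hmmr, -3.63 (SE 0.126, edgeR adjusted p = 4.56e-21) for Cenpf and -3.34 (SE 0.112, edgeR adjusted p = 2.04e-21) for Nuf2. The smallest of the 50 were -0.46 (SE 0.113, edgeR adjusted p = 7.73e-04) for Spc25, -0.56 (SE 0.107, edgeR adjusted p = 4.40e-05) for Kif18a and -0.60 (SE 0.0972, edgeR adjusted p = 3.32e-06) for Kif23. By role the medians ran from -2.11 for spindle assembly proteins and -2.06 for the cyclins with Cdk1 to -1.01 for the mitotic kinases and -0.96 for the anaphase genes, with wide overlap between roles.

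**Figure D4:**
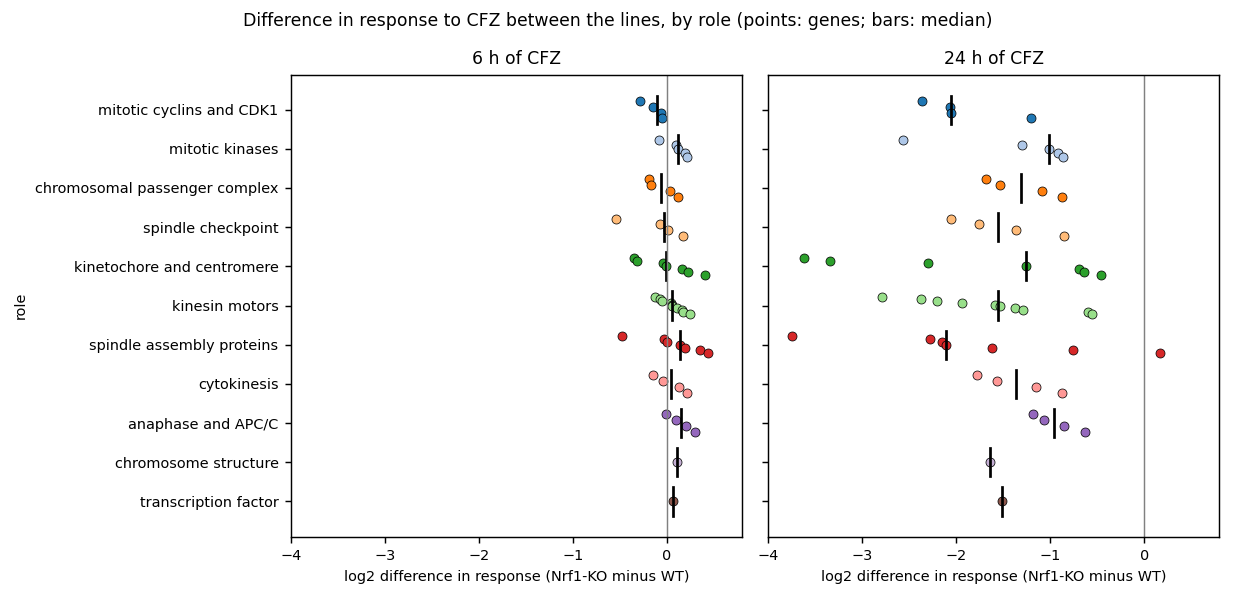
Each point is 1 gene, and the x axis gives the log2 difference in response to CFZ, Nrf1KO minus WT, at 6 h on the left and 24 h on the right, with the median of each role as a bar. At 6 h the points straddle 0 and stay between -0.55 and 0.44, and at 24 h they reach -3.74, with Ckap2, at 0.17, the 1 point above 0.

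Lists of other genes of the same pathways had medians nearer 0 at 24 h in both lines. Among all genes tested, 41.1% were lower and 44.4% higher in the Nrf1KO cells at 24 h, and 40.5% and 43.2% in WT cells. Of 36 other kinetochore and checkpoint genes tested, 30 were lower and 1 higher in the Nrf1KO cells at 24 h (median -1.43), and 28 were lower and 5 higher in WT cells (median -0.66). Casc5, the table's symbol for the kinetochore scaffold Knl1, had -1.62 (SE 0.0529, edgeR adjusted p = 3.74e-23) in WT and -3.75 (SE 0.0687, edgeR adjusted p = 5.38e-30) in Nrf1KO cells. Of 34 other spindle and cytokinesis genes, 32 were lower and 2 higher in the Nrf1KO cells (median -2.08), and 30 and 2 in WT cells (median -1.12). Ccnf, cyclin F, was 1 of the 2 in each line, at 0.64 (SE 0.0445, edgeR adjusted p = 1.93e-14) in WT and 0.58 (SE 0.0437, edgeR adjusted p = 1.13e-13) in Nrf1KO cells at 24 h, although at 6 h it had fallen, at -1.23 and -1.11. Mki67, the proliferation marker Ki-67, read 600.6, 623.7 and 555.0 CPM in WT cells in DMSO and 176.8, 169.5 and 159.7 at 24 h. In Nrf1KO cells Mki67 read 550.5, 462.2 and 471.8 CPM in DMSO and 27.96, 28.1 and 22.1 at 24 h. Its log2 fold change was -1.82 (SE 0.0726, edgeR adjusted p = 7.97e-21) in WT and -4.25 (SE 0.0895, edgeR adjusted p = 2.53e-28) in Nrf1KO cells.

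Of 21 cohesin and condensin genes, which tie and compact chromosomes, 16 were lower and 4 higher in the Nrf1KO cells at 24 h (median -0.77), and 15 and 5 in WT cells (median -0.60). The condensin subunit Smc2 had -0.94 in WT and -1.44 in Nrf1KO cells. Over all genes tested the shares at 24 h were 41.1% lower and 44.4% higher in Nrf1KO cells, and 40.5% and 43.2% in WT cells. Of 17 other APC/C genes, 13 were lower and 2 higher in the Nrf1KO cells (median -0.41), and 10 and 3 in WT cells (median -0.13). Their inhibitor Fbxo5 (Emi1) had -1.76 (SE 0.0837, edgeR adjusted p = 7.91e-19) and -2.60 (SE 0.0850, edgeR adjusted p = 3.06e-23). Of 29 regulators of mitotic entry and mitotic transcription, 18 were lower and 9 higher in the Nrf1KO cells (median -0.28), and 15 and 10 in WT cells (median -0.15). Among these Cdc25b, a phosphatase that activates Cdk1, had -2.005 and -2.39, and Cdc25c -1.04 and -2.27. Wee1, the kinase that holds Cdk1 back, had -1.61 and -1.88. The repressors E2f7 and E2f8 had -0.55 and -1.91 in WT and -1.66 and -2.199 in Nrf1KO cells. The response at 24 h was more negative in Nrf1KO cells for 29 of 36 other kinetochore and checkpoint genes, and more positive for 0. For 34 other spindle and cytokinesis genes these counts were 27 and 3, and for 21 cohesin and condensin genes 14 and 5. For 17 other APC/C genes they were 8 and 2, and for the 29 regulators 17 and 7. Over all genes tested the shares were 30.0% and 29.7%.

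Transcription factors of the cell cycle did not all move with the 51 genes. Mybl2, which encodes B-MYB, was higher at 6 h in both lines, at 0.27 (SE 0.0658, edgeR adjusted p = 5.57e-04) in WT and 0.53 (SE 0.0720, edgeR adjusted p = 1.06e-07) in Nrf1KO cells, and lower at 24 h, at -0.90 (SE 0.0767, edgeR adjusted p = 2.33e-12) and -1.21 (SE 0.0865, edgeR adjusted p = 3.13e-14). Lin9, a MuvB subunit, was higher at 24 h in both lines, at 0.38 (SE 0.0728, edgeR adjusted p = 2.15e-05) and 0.30 (SE 0.0644, edgeR adjusted p = 8.35e-05). The MuvB subunit Lin54 differed in direction between the lines, at 0.86 in WT and -0.94 in Nrf1KO cells at 24 h. The subunits Lin37, Lin52 and Rbbp4 were at 0.76, 1.06 and 0.16 in WT and 0.15, 0.71 and 0.19 in Nrf1KO cells. Under library size alone Mybl2 in WT cells at 6 h (0.14, adjusted p = 0.0622 from edgeR) and Lin9 in Nrf1KO cells at 24 h (0.12, adjusted p = 0.0927 from edgeR) were not called. E2f1 was higher in WT cells at 24 h, at 0.30 (SE 0.0576, edgeR adjusted p = 1.63e-05), and lower in Nrf1KO cells, at -0.17 (SE 0.0547, edgeR adjusted p = 0.00538).

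Genes of the earlier step, DNA replication and the G1/S transition, also had medians nearer 0 than the mitotic genes at 24 h. Of 42 tested, 34 were lower and 2 higher in the Nrf1KO cells at 24 h (median -0.67), and 32 and 7 in WT cells (median -0.36). Shares over all genes tested were 41.1% lower and 44.4% higher in Nrf1KO cells, and 40.5% and 43.2% in WT cells. At 24 h the response of 29 of the 42 was more negative in the Nrf1KO cells and that of 3 more positive. Over all genes tested these shares were 30.0% and 29.7%. Mcm2, a subunit of the replicative helicase, had -0.40 in WT and -0.51 in Nrf1KO cells, and cyclin E2 (Ccne2) -0.9996 and -1.93. Of 7 CDK inhibitor genes, 4 passed the expression filter, of which 3 were lower and 1 higher in the Nrf1KO cells at 24 h. Cdkn1a, which encodes p21, read 126.1, 126.1 and 123.9 CPM in WT cells in DMSO, 209.0, 200.2 and 213.8 at 6 h and 158.1, 157.4 and 159.7 at 24 h. In Nrf1KO cells Cdkn1a read 90.2, 90.1 and 90.2 CPM in DMSO, 260.3, 261.8 and 260.6 at 6 h and 267.9, 266.1 and 256.0 at 24 h. It was the lower in the Nrf1KO cells in DMSO and the higher there at both times of CFZ, with no overlap, and the difference in its response was 0.81 (SE 0.0468, edgeR adjusted p = 4.35e-15) at 6 h and 1.21 (SE 0.0468, edgeR adjusted p = 5.76e-20) at 24 h. Cdkn1b, which encodes p27, fell in both lines at 24 h, at -1.28 (SE 0.0393, edgeR adjusted p = 7.08e-24) in WT and -0.93 (SE 0.0382, edgeR adjusted p = 1.60e-20) in Nrf1KO cells.

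**Figure D5:**
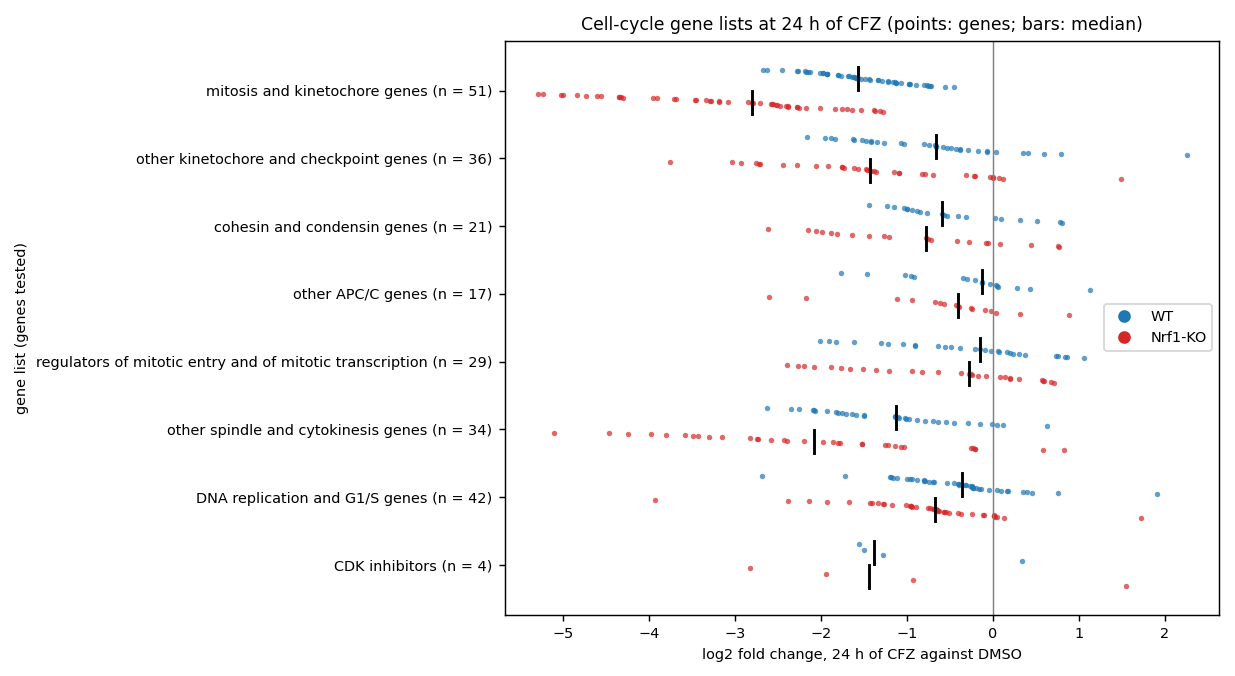
Each point is 1 gene tested, with its log2 fold change at 24 h of CFZ against DMSO on the x axis, blue for WT and red for Nrf1KO, and the bar is the median of its list. The medians of the 51 mitosis and kinetochore genes, -1.56 and -2.80, lie lowest of the lists plotted in each line.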

How the data were processed

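Poly(A) RNA of the 18 libraries had been made into stranded libraries and sequenced in paired ends. The deposited values are whole-number counts per gene, not normalized, which the authors obtained with an RNA-seq application that joins the STAR aligner and DESeq2; the genome build, the annotation and the use of strand in counting are not given in the sources used here. The paper calls the samples of this experiment biological replicates. The labels give a replicate number in each group but no culture or day, so p-values measure the spread between these samples. The 51 genes and all other gene lists were chosen with earlier results of these data known.

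Of the 23420 genes, 6577 had no count, and 11762 passed edgeR's filterByExpr (minimum count of 10, total of 15). All 18 libraries were fitted in 1 model of the 6 groups with TMM scaling and edgeR's quasi-likelihood test (edgeR 4.0.16, limma 3.58.1, R 4.3.3). Benjamini-Hochberg adjustment was over all genes tested in each comparison, with a threshold of 0.05. The procedure was tested on simulated data in which few genes changed, in the Nrf1KO cells at 24 h alone. That simulation cannot show how the scaling behaves where most genes change, as they did at 24 h. Totals ranged from 8333148 to 23917081 with a median of 14419832, and the lowest count of any of the 51 genes was 11, so depth was ample for most of them. Alternatives were DESeq2 1.42.0, upper-quartile scaling, library size alone, no expression filter, a mean count of at least 10, a minimum fold of 2, only the groups compared, the replicate number as a block, and each library left out. No library pair came within counting noise, since the chi-square per degree of freedom lay between 1.44 and 8.47. Libraries with the same number did not deviate together (mean correlation 0.0136 over 45 pairs, from -0.049 to 0.097), so the numbers were not taken to pair them.

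A panel of 20 genes covering the roles was given in every library, together with the genes of largest and smallest change in each comparison; among the other lists, genes long used as examples of each pathway were named. Positions, exonic lengths and overlaps come from GENCODE M21 (GRCm38) and promoters from RefSeq (GRCm38.p6), which need not be the annotation behind the counts.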

Additional observations from a re-analysis of the deposited data

Results flagged for a closer look

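Responses to CFZ that differed between the 2 lines are listed here, each tested by the interaction of line and treatment in edgeR and adjusted over all genes. Each value is the log2 fold change in the Nrf1KO cells minus that in the WT cells, so a negative value means a larger fall, or a smaller rise, in the Nrf1KO cells.

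At 6 h, 8 of the 51 genes had a more negative response (18.4% of all genes tested) and 13 a more positive one (19.8%). These shares of the 51 were not far from those of all genes. The negative values were Cdk1 -0.28, Ccnb1 -0.14, Incenp -0.20, Bub1b -0.55, Nuf2 -0.32, Spc24 -0.36, Hmmr -0.48 and Anln -0.15. The positive values were Plk1 0.19, Nek2 0.22, Cenpe 0.40, Cenpf 0.22, Kif20a 0.17, Kif23 0.25, Tpx2 0.14, Aspm 0.35, Ckap2 0.44, Ckap2l 0.20, Racgap1 0.21, Cdc20 0.20 and Espl1 0.30. Of these 21, 12 lost the call when 1 library was left out, and the value with the highest adjusted p (in parentheses) was Ccnb1 -0.13 (0.0995) without Nrf1KO DMSO replicate 1, Plk1 0.12 (0.268) without WT 6 h replicate 1, Nek2 0.17 (0.0588) without WT 6 h replicate 2, Incenp -0.15 (0.0837) without Nrf1KO 6 h replicate 3, Cenpf 0.17 (0.117) without WT 6 h replicate 2, Spc24 -0.30 (0.0673) without Nrf1KO DMSO replicate 3, Kif20a 0.12 (0.143) without WT 6 h replicate 1, Kif23 0.18 (0.0865) without WT 6 h replicate 2, Tpx2 0.094 (0.227) without WT 6 h replicate 1, Ckap2l 0.14 (0.118) without WT 6 h replicate 1, Anln -0.12 (0.0749) without Nrf1KO 6 h replicate 3 and Espl1 0.24 (0.128) without WT 6 h replicate 2.

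At 24 h, 50 of the 51 had a more negative response (30.0% of all genes tested) and 1 a more positive one (29.7%). Among the mitotic cyclins and their kinase the values were Cdk1 -1.21, Ccna2 -2.37, Ccnb1 -2.07 and Ccnb2 -2.06. The other mitotic kinases stood at Aurka -0.92, Plk1 -2.57, Plk4 -0.86, Nek2 -1.30 and Melk -1.01. In the chromosomal passenger complex they were Aurkb -1.53, Incenp -1.08, Birc5 -1.68 and Cdca8 -0.88, and in the spindle checkpoint Bub1 -1.76, Bub1b -2.05, Ttk -1.36 and Mad2l1 -0.86. Kinetochore and centromere genes stood at Cenpa -0.69, Cenpe -0.64, Cenpf -3.63, Ndc80 -1.25, Nuf2 -3.34, Spc24 -2.31 and Spc25 -0.46. The kinesins had Kif2c -2.79, Kif4 -1.59, Kif11 -2.37, Kif14 -1.94, Kif15 -2.202, Kif18a -0.56, Kif20a -1.53, Kif20b -1.29, Kif22 -1.37 and Kif23 -0.60. Spindle assembly genes spread most, with Tpx2 -0.76, Aspm -2.15, Hmmr -3.74, Nusap1 -2.28, Dlgap5 -1.62, Ckap2 0.17 and Ckap2l -2.11. In cytokinesis the values were Prc1 -1.57, Ect2 -1.16, Anln -1.78 and Racgap1 -0.88, and in anaphase Cdc20 -0.86, Ube2c -1.06, Pttg1 -0.63 and Espl1 -1.18. The last 2 were Top2a -1.64 and Foxm1 -1.52. Of these 51 calls, that of Ckap2 was lost when 1 library (WT 24 h replicate 3) was left out, and the other 50 were made under each alternative run other than a minimum fold of 2, which left 37 of them. What sets the lines apart may include more than the knockout, and its part in these differences was not tested.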

How the results depend on the processing

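Every call at 24 h against DMSO, at 24 h against 6 h and between the lines at 24 h was made under each alternative that changed the model or left out a library, and so were all 50 calls in the WT cells at 6 h and 46 of the 47 in the Nrf1KO cells, where Nek2 was lost without Nrf1KO 6 h replicate 3 (-0.099, adjusted p = 0.0736). Between the lines in DMSO 18 of the 26 calls were made under each of them, and at 6 h 19 of the 28. With upper-quartile scaling the medians of the 51 genes at 6 h and 24 h were -0.72 and -1.702 in WT and -0.63 and -2.904 in Nrf1KO cells, and 5 interactions at 6 h were negative. With library size alone the medians were -0.74 and -1.67 in WT, -0.67 and -2.98 in Nrf1KO cells and -2.35 in the latter from 6 h to 24 h. Between the lines it gave a median of 0.16 at 6 h with 6 lower, 6 lower and 22 higher in DMSO, and at 24 h a median interaction of -1.59 with 0 positive. A minimum fold of 2 left 2 genes lower in WT and 5 in Nrf1KO cells at 6 h and 23 in WT cells from 6 h to 24 h, with 0 either way between the lines in DMSO, at 6 h and for the interaction at 6 h, and 0 higher between the lines at 24 h and for the interaction at 24 h.

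Leaving out 1 library at a time gave medians from -1.639 to -1.502 for WT at 24 h, from -1.039 to -0.9298 for WT from 6 h to 24 h, from -2.9 to -2.786 for Nrf1KO at 24 h, from -2.369 to -2.289 for Nrf1KO from 6 h to 24 h, from -1.364 to -1.275 between the lines at 24 h and from -0.01266 to 0.07427 for the interaction at 6 h. The interactions at 6 h then numbered from 4 to 10 negative and from 6 to 14 positive, and the positive ones at 24 h from 0 to 1. Changes near 0 turned sign. Pttg1 in WT from 6 h to 24 h was -0.01985 with upper-quartile scaling and -0.01978 without the expression filter, and from -0.07147 to 0.02796 without 1 library. Ckap2 in Nrf1KO at 6 h was -0.05312, -0.09116 and -0.02846 with upper-quartile scaling, library size alone and no filter. Without 1 library Bub1 at 6 h ran from -0.06806 to 0.0002388 in WT and from -0.05542 to 0.009058 in Nrf1KO cells, and Cenpe in Nrf1KO at 6 h from -0.07788 to 0.007674. A called change also turned sign, that of Nfe2l1 in Nrf1KO at 24 h. It was 0.182 (SE 0.0346, edgeR adjusted p = 1.64e-05) in the main fit and -0.0009205 with library size alone. The cause of these shifts was not tested.

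The fit with the replicate number as a block gave a median of -1.569 at 24 h in WT and -2.798 in Nrf1KO cells, and changed 1 call that had been made on the 51 genes, that of Spc25 between the lines in DMSO (0.13, adjusted p = 0.0566 from edgeR). Depth limits the lowest values, above all Ccnb2 in the Nrf1KO cells at 24 h.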

Other observations

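Some genes of the other lists, chosen after their values were seen, moved against their list or far beyond it. Zwint, a kinetochore gene, was higher at 24 h in both lines, with a log2 fold change of 2.26 in WT and 1.49 in Nrf1KO cells. In the Nrf1KO cells 30 of the 36 genes of its list were lower, as were 41.1% of all genes tested. Tk1, thymidine kinase, was at -2.69 in WT and -3.93 in Nrf1KO cells. Iqgap3 was at -2.26 in WT and -5.10 in Nrf1KO cells. Esco2, which acetylates cohesin in S phase, was at 0.31 in WT and -2.61 in Nrf1KO cells, and its response to CFZ at 24 h differed between the lines by -2.92. In DMSO, 30 of the 42 genes of DNA replication and the G1/S transition were higher in the Nrf1KO than in the WT cells and 0 lower, with a median of 0.26, while 25.7% of all genes tested were higher and 29.1% lower. Under library size alone the share of all called genes that were higher in that comparison moved from 46.9% to 57.7%.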
